A study of Mus musculus with 108 samples.

Results

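Expression of 6 marker genes of border macrophages, the macrophages of the meninges, the perivascular spaces and the choroid plexus, was examined in bulk RNA-seq of 3 brain regions from Cul3+/- and WT mice at 3 ages. The 6 genes, Mrc1, Folr2, Cd163, Lyve1, Pf4 and Ms4a7, were taken by name from the 53465 genes of the count table. They were selected on their CPM, and were chosen with their levels in every age, region and genotype known, so their levels and differences are a description. Counts of members past a threshold are printed beside the share of all genes past it, and nothing is read from them. Tests are given for 28 other genes known from the same cells.

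Cortex (CX), hippocampus (HIP) and cerebellum (CB) were dissected in embryos (E17.5), at postnatal day 7 (P7) and in adults labelled P35. The mutant mice carried 1 copy of a germline frameshift insertion in Cul3, made by CRISPR and carried by a line from 1 founder on a C57BL/6N background, so every cell type held the mutation, and the controls were WT mice. There were 6 mice per genotype at E17.5 and at P7 and 5 in adults, giving 102 libraries from 34 mice, each mouse providing all 3 regions. A further 2 adult mice were left out, because the labels and the sample table of the study gave them opposite genotypes. For the RNA samples the methods name neither perfusion nor removal of the meninges, and sex is not among the labels.

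Border macrophages take up proteins, lipids and cell debris from the fluid and the vessel walls around the brain, while microglia occupy the tissue itself. Both cell types come from early embryonic progenitors and depend on the receptor Csf1r, but border macrophages keep genes of endocytosis and antigen presentation that microglia switch off or never express. Mrc1 encodes the mannose receptor CD206, Cd163 the scavenger receptor for haemoglobin bound to haptoglobin, Lyve1 a receptor for hyaluronan, and Folr2 the folate receptor beta. Pf4 encodes the chemokine CXCL4, which platelets also store, and Ms4a7 encodes a membrane protein of the MS4A family. In bulk tissue, fewer cells of a type and less RNA per cell cannot be told apart.

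On the mouse assembly GRCm38 the genes of the endocytic receptors lay at chr2:14229392-14332057 (Mrc1, plus strand), chr6:124304656-124330527 (Cd163, plus strand), chr7:110850607-110863239 (Lyve1, minus strand) and chr7:101839988-101857194 (Folr2, minus strand). Pf4 lay at chr5:90772435-90773383 on the plus strand and Ms4a7 at chr19:11321039-11336146 on the minus strand, and all 6 are protein-coding genes. Exons of Folr2 overlap exons of Gm10602, an antisense gene, and reads of both genes cannot be told apart unless the counting used strand, which is not given in the sources used here.

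The sequence before the first RefSeq start was available for 5 of the 6 genes, all but Lyve1. Of these, 2 held the letters GAGGAA, the PU box bound by the myeloid factor PU.1, and these 2 are shown because they carry it. Each run is 250 bases, 5′ to 3′ on the plus strand of GRCm38 (RefSeq), and capitals mark the PU box, which reads TTCCTC because every copy lies on the minus strand.
Mrc1, chr2:14229164-14229413: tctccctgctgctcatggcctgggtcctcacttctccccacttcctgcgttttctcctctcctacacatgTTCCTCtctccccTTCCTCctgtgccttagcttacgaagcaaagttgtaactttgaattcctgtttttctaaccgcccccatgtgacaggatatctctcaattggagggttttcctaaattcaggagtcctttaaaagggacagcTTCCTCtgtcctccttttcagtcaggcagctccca
Pf4, chr5:90772185-90772434: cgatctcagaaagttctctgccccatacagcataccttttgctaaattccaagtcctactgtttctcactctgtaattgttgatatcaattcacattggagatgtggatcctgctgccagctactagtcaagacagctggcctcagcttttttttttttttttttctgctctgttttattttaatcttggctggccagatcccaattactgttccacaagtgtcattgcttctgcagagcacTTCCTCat
The copies before Mrc1 began 180, 167 and 35 bases before the start, and the copy before Pf4 began 8 bases before it. The same letters, searched on both strands, were in 7639 of 32851 mouse promoters of this length (23.3%). The MAF half-site TGCTGAC (3.81% of all promoters) and the TATA box TATAAA (12.4%) were in none of the 5. None of the 3 motifs contains another, and a match is a description of the sequence.

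Libraries held 15126114 to 44411282 counts (median 32663960), and values are CPM, counts scaled to a fixed library total, with TMM scaling. Cul3 went with the labels: mean CPM in Cul3+/- mice was 0.504 to 0.613 of WT in the 9 combinations of age and region, with no overlap between libraries and adjusted p of 8.8e-09 to 0.00264 (edgeR quasi-likelihood test, Benjamini-Hochberg). The members were counted at low depth. The median library had 269.5 reads of Mrc1, 41.5 of Cd163, 31 of Lyve1, 24 of Pf4 and 8 each of Folr2 and Ms4a7. A count of 0 occurred in 10 libraries for Ms4a7, 6 for Folr2, 3 for Cd163 and 2 for Pf4. The replicates of a group were separate mice.

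All 6 members had their highest mean level at P7 and their lowest in E17.5 CX. The mean of Mrc1, the mannose receptor, was 19.0 ± 5.04 CPM in P7 HIP, 17.6 ± 3.39 in P7 CB and 16.6 ± 2.61 in P7 CX (SD, n = 12, both genotypes). It was 8.91 ± 1.44 in adult CB, 7.65 ± 0.848 in adult CX and 6.19 ± 0.908 in adult HIP (n = 10). At E17.5 it was 8.45 ± 5.03 in HIP, 3.08 ± 3.08 in CB and 1.35 ± 0.391 in CX. In the order of these means the 3 values at P7 did not differ by more than the larger SD of neighbours, and neither did adult CB, E17.5 HIP and adult CX.

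**Figure D1:**
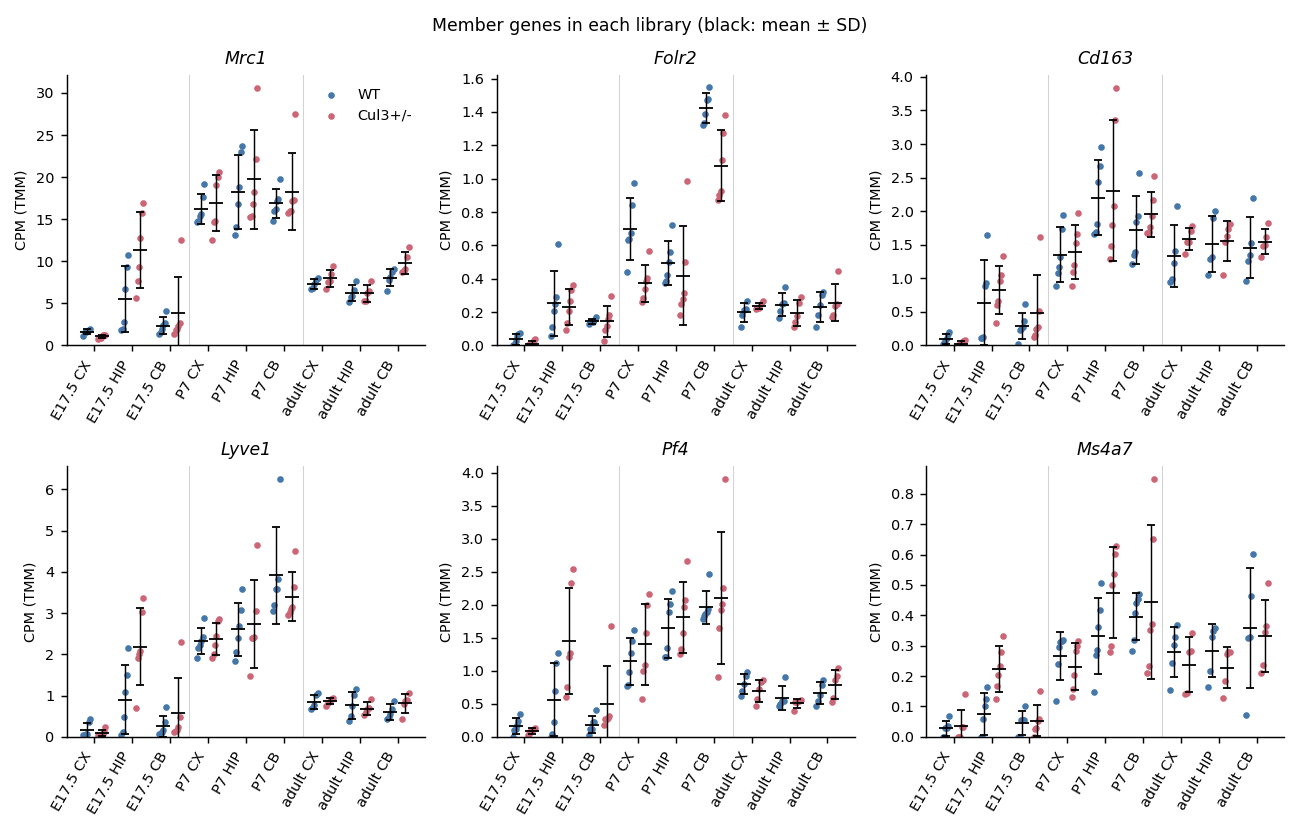
CPM of each member in each of the 102 libraries by age and region (6 panels, linear axes), WT in blue and Cul3+/- in red, with the mean ± SD in black. The highest means of all 6 genes were at P7, and Mrc1 in E17.5 HIP spread from 1.84 to 16.9 CPM.

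Cd163 had adult means inside the range of its 3 means at P7. Its means ran from 2.25 ± 0.801 CPM in P7 HIP through 1.84 ± 0.426 in P7 CB, 1.53 ± 0.343 in adult HIP, 1.50 ± 0.333 in adult CB and 1.46 ± 0.353 in adult CX to 1.37 ± 0.385 in P7 CX, with no neighbours further apart than the larger SD. At E17.5 it was at 0.730 ± 0.500 in HIP, 0.390 ± 0.418 in CB and 0.0641 ± 0.0651 in CX. Lyve1 peaked in P7 CB at 3.66 ± 0.927 CPM, beyond the larger SD above P7 HIP (2.67 ± 0.847), which was followed by P7 CX (2.35 ± 0.346). Adult Lyve1 was 0.854 ± 0.125 in CX, 0.722 ± 0.239 in HIP and 0.707 ± 0.226 in CB, below E17.5 HIP (1.54 ± 1.08) and above E17.5 CX (0.126 ± 0.138).

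Folr2 was set apart in P7 CB. Its mean there was 1.25 ± 0.239 CPM (range 0.874 to 1.55), against 0.536 ± 0.223 in P7 CX and 0.457 ± 0.223 in P7 HIP, the next in the order. Adult means were 0.244 in CB, 0.220 in HIP and 0.218 in CX. In E17.5 CX, Folr2 had 7 reads in all WT libraries together and 2 in all Cul3+/- libraries. Pf4, the chemokine, was at 2.03 ± 0.698 CPM in P7 CB, 1.73 ± 0.475 in P7 HIP and 1.27 ± 0.498 in P7 CX, at 0.747, 0.723 and 0.547 in adult CX, CB and HIP, and at 0.127 ± 0.0944 in E17.5 CX. Ms4a7 was at 0.420 ± 0.180 CPM in P7 CB, 0.403 ± 0.152 in P7 HIP and 0.249 ± 0.0770 in P7 CX, and at 0.346, 0.258 and 0.256 in adult CB, CX and HIP. No neighbours in the order of Pf4 or of Ms4a7 differed by more than the larger SD.

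Per kilobase of exon, the scale on which genes can be set side by side, Mrc1 and Pf4 had like levels. In P7 CB Pf4 was at 2.82 CPM per kilobase and Mrc1 at 2.76, followed by Lyve1 at 1.25, Folr2 at 0.810, Cd163 at 0.336 and Ms4a7 at 0.0943.

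The label was checked against genes of other cells that share members. Platelets also hold Pf4. Of 10 platelet genes, mean CPM over the 9 combinations was 13.7 for Gp1bb, 1.07 for Itga2b, 0.517 for Gp5 and 0.140 for Clec1b, and 0.0252 to 0.0928 for the other 6. Their sum, at 9.47 to 23.7 CPM in the 18 group means, was mostly Gp1bb, so it was not set against Pf4. Lymphatic endothelium also holds Lyve1. Of its 5 genes, mean CPM was 53.3 for Prox1, which hippocampal neurons also express, 4.21 for Flt4, 2.34 for Mmrn1 and 0.0975 for Ccl21a, the last named after its values were seen. Flt4 (6.21), Mmrn1 (7.07) and Ccl21a (0.495) were highest in P7 CB, as Lyve1 was. Highest in HIP, at P7 and E17.5, were Prox1 (139.7) and Pdpn (27.4). The part of these cells in the levels of Pf4 and Lyve1 was not tested. The 10 blood leukocyte genes summed to 0.459 to 1.94 CPM in the 18 group means.

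The comparison of ages asked how the members differ between E17.5, P7 and the adult brain in each region. Genotype was a term of the model, and both steps share the P7 libraries. Differences are log2 fold changes with their SE from edgeR.

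From E17.5 to P7 the members were higher in every region. In CX Mrc1 held 0.732 to 1.91 CPM at E17.5 and 12.5 to 20.6 at P7, a ratio of means of 12.2. The differences in CX were 3.58 ± 0.12 for Mrc1, 4.16 ± 0.31 for Folr2, 4.34 ± 0.29 for Cd163, 4.19 ± 0.25 for Lyve1 and 3.27 ± 0.28 for Pf4, all without overlap between libraries. Ms4a7 was too low to enter the test there. In CB they were 2.53 ± 0.24 for Mrc1, 3.06 ± 0.19 for Folr2, 3.18 ± 0.35 for Lyve1 and 2.98 ± 0.35 for Ms4a7, without overlap, and 2.24 ± 0.28 for Cd163 and 2.62 ± 0.31 for Pf4, with overlap. In HIP all 6 overlapped, and the differences ran from 0.77 ± 0.31 for Pf4 to 1.54 ± 0.28 for Cd163, with 1.17 ± 0.23 for Mrc1.

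Higher at an adjusted p of at most 0.1 were 5 of 5 members tested in CX and all 6 in both HIP and CB, beside 44.5%, 42.4% and 40.5% of all genes tested. Without overlap and higher were 5, 0 and 4 members, beside 26.8%, 20.8% and 17.7% of all genes. The choice of the members used this contrast, and nothing is read from these counts.

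From P7 to the adult brain Mrc1 and Lyve1 were lower in each region, with no overlap. Mrc1 differed by -1.08 ± 0.11 in CX, -1.59 ± 0.25 in HIP and -0.98 ± 0.23 in CB. Lyve1 differed by -1.42 ± 0.20, -1.86 ± 0.35 and -2.37 ± 0.35. Folr2 was lower in CB (-2.33 ± 0.19, no overlap), next to -1.21 ± 0.22 in CX and -1.03 ± 0.29 in HIP. Pf4 differed by -0.74 ± 0.23, -1.63 ± 0.35 and -1.49 ± 0.30 in CX, HIP and CB. Cd163 stood near 0 in CX (0.12 ± 0.20) and CB (-0.27 ± 0.26), and in HIP was at -0.53 ± 0.28. Ms4a7 was at -0.59 ± 0.27 in HIP and -0.26 ± 0.27 in CB. Lower at an adjusted p of at most 0.1 were 4 of 5, 6 of 6 and 4 of 6 members in CX, HIP and CB, beside 40.4%, 37.4% and 42.6% of all genes. Lower without overlap were 2, 3 and 3, beside 21.3%, 18.6% and 24.5% of all genes, and nothing is read from these counts.

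The 28 other border macrophage genes were higher at P7 than at E17.5 where they passed the test, and went both ways after P7. From E17.5 to P7, 19 of 19 tested rose in CX, and 16 of 19 did in HIP, as did 20 of 20 in CB, and none fell. Median differences were 2.18, 1.32 and 2.71, beside 0.00, -0.02 and -0.01 over all genes tested. A gene low at E17.5 can enter only through its later libraries, so these are not counts over all 28 genes. Dab2, an adaptor of endocytosis, rose by 2.18 ± 0.10, 1.10 ± 0.13 and 1.96 ± 0.14. Stab1, a scavenger receptor, rose by 1.27 ± 0.07, 0.40 ± 0.11 and 1.43 ± 0.10. Axl, a receptor kinase that binds dying cells, rose by 0.60 ± 0.08, 0.69 ± 0.05 and 0.54 ± 0.04, and Cd38, an ectoenzyme that consumes NAD, by 2.05 ± 0.07, 2.70 ± 0.14 and 2.62 ± 0.09. F13a1, the A chain of coagulation factor XIII, rose by 3.002 ± 0.20 in CX and 1.78 ± 0.32 in CB, and was at 0.12 ± 0.31 in HIP (adjusted p = 0.728, edgeR).

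From P7 to the adult brain 9 genes of the list rose and 4 fell in CX, 5 rose and 8 fell in HIP, and 8 rose and 8 fell in CB, of 19, 19 and 20 tested. The medians were 0.35, -0.12 and -0.05, beside -0.02, -0.02 and 0.00 over all genes. Dab2 fell by 1.17 ± 0.10, 1.35 ± 0.14 and 1.18 ± 0.14 and Stab1 by 0.49 ± 0.07, 0.77 ± 0.12 and 1.14 ± 0.10 in CX, HIP and CB. Axl rose by 0.65 ± 0.09, 0.17 ± 0.05 and 0.45 ± 0.04. Cd38 rose by 0.60 ± 0.13 in HIP and 1.87 ± 0.08 in CB, and was at 0.03 ± 0.07 in CX (adjusted p = 0.694, edgeR). The 4 genes of MHC class II antigen presentation in the list were named after their values were seen, and they did not all move alike. H2-Aa, a chain of MHC class II, rose by 1.17 ± 0.20, 0.71 ± 0.28 and 1.71 ± 0.19, and Cd74, the invariant chain, by 1.02 ± 0.13, 0.71 ± 0.24 and 1.36 ± 0.19. H2-Ab1 rose by 0.50 ± 0.16 in CX and 0.36 ± 0.19 in CB and fell by 0.55 ± 0.20 in HIP. H2-Eb1 rose by 0.45 ± 0.17 in CX and 1.08 ± 0.21 in CB, and was at -0.07 ± 0.19 in HIP (adjusted p = 0.770, edgeR). Ccr1, a chemokine receptor also named after its values were seen, fell by 0.96 ± 0.16, 1.39 ± 0.25 and 1.80 ± 0.21.

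Genes of other cells moved over the same ages. Of 10 meningeal mesenchyme genes, collagens and factors of the fibroblasts among which meningeal macrophages lie, 10, 9 and 10 rose from E17.5 to P7, with medians of 3.59, 0.99 and 2.88. From P7 to adult 9, 6 and 6 fell and 0, 0 and 1 rose. Of 11 microglia genes, 10, 10 and 10 rose from E17.5 to P7 and 1 fell in each region, with medians of 1.78, 1.36 and 1.48. From P7 to adult 10 rose in CX and 10 in HIP, with medians of 1.21 and 1.10, and in CB 2 rose and 7 fell, with a median of -0.45. The part of the meningeal and microglia genes' changes in those of the members was not tested.

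**Figure D2:**
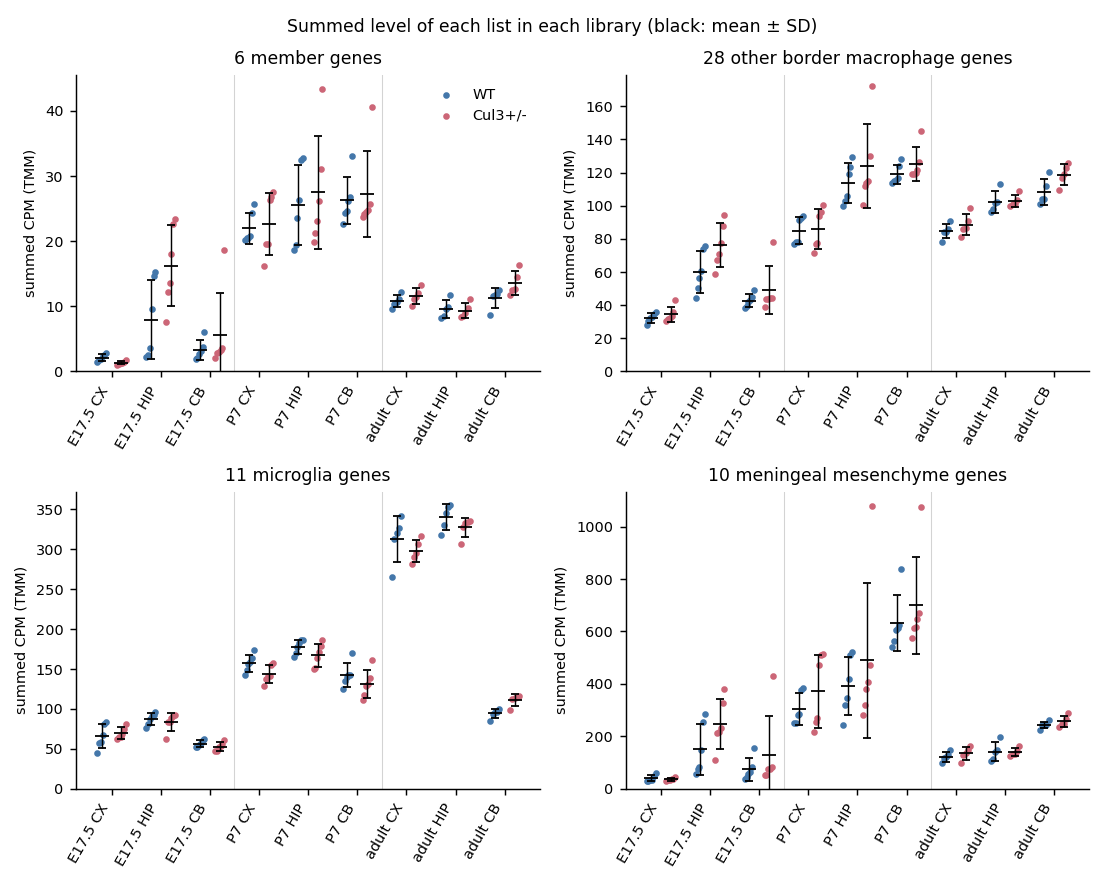
Summed CPM of the 6 members, 28 other border macrophage genes, 11 microglia genes and 10 meningeal mesenchyme genes in each library (4 panels, linear axes), WT in blue and Cul3+/- in red, with mean ± SD in black. Members and meningeal genes were highest at P7, while microglia genes were highest in adult CX and HIP, with WT means of 314 and 341 CPM.

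Regions were compared within mice, with the mouse as a block, and both comparisons of an age share the CX libraries. At E17.5, HIP held more of the 4 members tested than CX, and the libraries of HIP were uneven. Mrc1 was at 0.732 to 1.91 CPM in CX and 1.84 to 16.9 in HIP, ranges that met at their edge. The differences in HIP were 2.55 ± 0.37 for Mrc1, 3.49 ± 0.50 for Cd163, 3.57 ± 0.55 for Lyve1 and 2.89 ± 0.54 for Pf4, and in CB 0.96 ± 0.36, 2.46 ± 0.53, 1.48 ± 0.61 and 1.27 ± 0.60. Meningeal mesenchyme genes were higher in E17.5 HIP too, 10 of 10 with a median of 2.97, and their part in the result was not tested. For Mrc1 in HIP the difference was 1.66 in WT mice alone and 3.49 in Cul3+/- mice alone, and the difference between these was not tested. Higher at an adjusted p of at most 0.1 were 4 of 4 members tested in HIP and 4 of 4 in CB, beside 30.5% and 35.9% of all genes. Cd163, Lyve1 and Pf4 were too low in E17.5 CX to be tested there between genotypes, so a member of this level enters through the region where it is high, and nothing is read from these counts.

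At P7 Mrc1 was at 0.18 ± 0.11 in HIP and 0.14 ± 0.11 in CB relative to CX, and Folr2 was higher in CB (1.33 ± 0.17) and at -0.24 ± 0.19 in HIP. In CB, Ms4a7 was at 0.76 ± 0.22, Pf4 at 0.75 ± 0.18, Lyve1 at 0.68 ± 0.13 without overlap (beside 26.4% of all genes), and Cd163 at 0.50 ± 0.18. In HIP, Cd163 was at 0.70 ± 0.17, Ms4a7 at 0.64 ± 0.22, Pf4 at 0.47 ± 0.18 and Lyve1 at 0.16 ± 0.13. Higher at an adjusted p of at most 0.1 were 3 of 6 members in HIP and 5 of 6 in CB, beside 33.5% and 46.9% of all genes. In adults Mrc1 was at -0.32 ± 0.09 in HIP and 0.19 ± 0.08 in CB, Pf4 at -0.46 ± 0.17 and -0.07 ± 0.16, Cd163 at 0.06 ± 0.11 and 0.02 ± 0.11, and Lyve1 at -0.29 ± 0.17 and -0.30 ± 0.17. Past the threshold were 2 of 5 members in HIP, both lower, and 1 of 5 in CB, higher, beside 31.3% lower and 43.2% higher of all genes. Nothing is read from the counts at P7 or in adults either.

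Of the other border macrophage genes, 9 of 10 tested were higher in E17.5 HIP than CX and 6 of 10 in E17.5 CB. Beside them stood 30.5% and 35.9% of all genes. A gene low in E17.5 CX can enter through HIP or CB, so these are not counts over the whole list. With no filter on low counts, 17 of 27 genes of the list were called in HIP and 11 of 27 in CB, in either direction. At P7 10 were higher and 1 lower in HIP, and 14 higher and 1 lower in CB, of 21. In adults 4 were higher and 8 lower in HIP, and 11 higher and 3 lower in CB, of 19. Stab1 was higher in E17.5 HIP by 1.22 ± 0.13. Cd38 was higher by 1.81 ± 0.06 in adult HIP and 2.16 ± 0.06 in adult CB. Mgl2, a C-type lectin named after its values were seen, was higher in CB by 3.17 ± 0.23 at P7 (2.26 against 0.258 CPM) and 2.19 ± 0.20 in adults. In adult CB 11 of 11 microglia genes were lower than in CX (median -1.85) and 10 of 10 meningeal genes higher (median 0.88).

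The comparison of genotypes asked what loss of 1 copy of Cul3 does to these genes at each age and region. At an adjusted p of 0.1, of 1, 4 and 1 members tested at E17.5 (CX, HIP and CB), 5, 6 and 6 at P7 and 4, 4 and 5 in adults, edgeR called 0 and DESeq2 called 0, with no p from DESeq2 for Mrc1 in E17.5 CB. Cul3 was the 1 gene called by edgeR in each combination, 0.00603%, 0.00586% and 0.00568% of all genes tested at E17.5, 0.00566%, 0.00563% and 0.0057% at P7 and 0.00569%, 0.00584% and 0.00584% in adults. No member had libraries without overlap, beside 0.0603%, 0.0586% and 0.153% of all genes at E17.5 (CX, HIP and CB), 0.164%, 0.22% and 0.188% at P7 and 0.609%, 1.08% and 2.64% in adults. WT and Cul3+/- libraries of the same replicate number deviated together most in E17.5 CX, with a median Pearson's r of 0.47. The median was 0.34 in E17.5 HIP, 0.29 in E17.5 CB and at most 0.19 elsewhere. With the number as a block 55 of 16594 genes were called in E17.5 CX, none of them a member or another border macrophage gene. With that block no gene, Cul3 included, was called in adult CB.

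At an unadjusted p under 0.05 stood 5 values, Mrc1 in E17.5 CX, E17.5 HIP and adult CB and Folr2 in P7 CX and P7 CB, beside 1.67%, 2.29%, 14.4%, 3.22% and 4.89% of all genes. In the other 4 combinations there was none, beside 3.5% (E17.5 CB), 5.05% (P7 HIP), 3.66% (adult CX) and 6.25% (adult HIP). The choice of the members used these groups too, and nothing is read from the counts.

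In E17.5 CX, Mrc1 was at 1.12, 1.61, 1.63, 1.70, 1.88 and 1.91 CPM in WT and 0.732, 0.905, 0.944, 1.24, 1.26 and 1.30 in Cul3+/- mice. The lowest WT library lay within the Cul3+/- range and the other 5 above it, with a difference of -0.65 ± 0.18. In E17.5 HIP the order was opposite, with 1.84, 1.98, 2.83, 6.65, 9.32 and 10.7 CPM in WT and 5.63, 7.70, 9.36, 12.7, 15.7 and 16.9 in Cul3+/- mice and a difference of 0.99 ± 0.45. The WT libraries fell into 3 low and 3 high values. Meningeal genes summed to 75.6, 57.7 and 83.1 CPM in the 3 low libraries and to 147, 257 and 284 in the 3 high ones. Over the groups they summed to 151 ± 97.8 in WT and 247 ± 95.0 in Cul3+/- mice, and their part in the difference was not tested. Choroid plexus genes summed to 4895 CPM in the WT library with 10.7 CPM of Mrc1. They summed to 30.2 to 176 in the other WT libraries and to 51.7 to 381 in Cul3+/- mice, and their part was not tested either. Lyve1 was at 1.21 ± 0.62, Pf4 at 1.26 ± 0.65 and Cd163 at 0.27 ± 0.58 in the same libraries.

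In P7 CX, Folr2 was at 0.441, 0.630, 0.635, 0.676, 0.840 and 0.972 CPM in WT and 0.262, 0.282, 0.339, 0.386, 0.406 and 0.566 in Cul3+/- mice, from 148 and 72 reads in all. The highest Cul3+/- library reached into the WT range, and the difference was -0.89 ± 0.24. In P7 CB, Folr2 was at 1.32, 1.34, 1.39, 1.47, 1.48 and 1.55 CPM in WT and 0.874, 0.901, 0.927, 1.11, 1.27 and 1.38 in Cul3+/- mice, where 1 Cul3+/- library lay within the WT range, with a difference of -0.38 ± 0.14. In P7 HIP it was at -0.22 ± 0.37 (0.494 ± 0.133 and 0.419 ± 0.298 CPM). The other members in P7 CX were between 0.03 ± 0.13 for Lyve1 and 0.29 ± 0.29 for Pf4. Gm10602, whose exons overlap those of Folr2, was at 0.297 ± 0.137 CPM in WT and 0.219 ± 0.0784 in Cul3+/- P7 CX.

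In adult CB, Mrc1 was at 6.43, 7.74, 8.18, 8.69 and 9.04 CPM in WT and 8.72, 8.90, 9.12, 10.5 and 11.7 in Cul3+/- mice, a difference of 0.26 ± 0.11. The groups overlapped at their edges. Microglia genes, none of them called, were also higher there, from 94.4 ± 5.90 to 111 ± 7.22 CPM in sum, and their part was not tested. In E17.5 CB, 1 library decided the value. Mrc1 was at 1.39, 1.89, 2.00, 2.36, 2.64 and 12.6 CPM in Cul3+/- and 1.35, 1.56, 1.99, 2.43, 2.63 and 4.13 in WT mice, a difference of 0.73 ± 0.51, which was -0.16 without the highest Cul3+/- library. That library had a meningeal sum of 428 CPM, and the other 5 had at most 82.2.

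**Figure D3:**
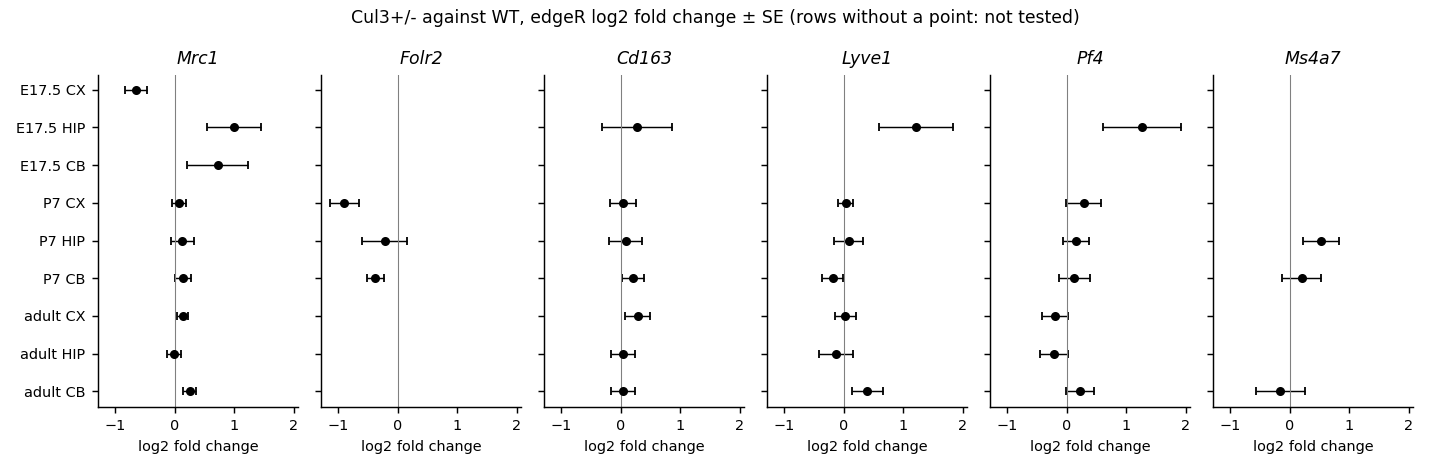
Log2 fold change of Cul3+/- against WT (points) with its SE (bars) from edgeR, for each member in each combination where it passed the filter on low counts. The widest bar was that of Pf4 in E17.5 HIP (1.26 ± 0.65), and Folr2 lay below 0 in all 3 regions at P7, at -0.89 ± 0.24 in CX.

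Of the 28 other genes 0 passed an adjusted p of 0.1 in edgeR or DESeq2 (which gave no p for F13a1 in E17.5 CB), of 7, 10 and 10 tested at E17.5, 18, 19 and 22 at P7 and 18, 18 and 18 in adults. At an unadjusted p under 0.05 there were 0, 0 and 0 at E17.5, 0, 1 and 2 at P7 and 1, 0 and 5 in adults in edgeR. Beside them stood 1.67%, 2.29% and 3.5% of all genes at E17.5, 3.22%, 5.05% and 4.89% at P7 and 3.66%, 6.25% and 14.4% in adults. Nothing is read from these counts. Each of these border macrophage genes was higher in Cul3+/- mice, and is named here after its values were seen where no rule had named it. At P7 they were Axl in HIP (0.12 ± 0.05) and Dab2 (0.26 ± 0.09) and Tgfbi (0.54 ± 0.17) in CB, and in adult CX Stab1 (0.21 ± 0.08). In adult CB they were Stab1 (0.21 ± 0.08), Cd38 (0.21 ± 0.08), Siglec1 (0.56 ± 0.24), H2-Ab1 (0.51 ± 0.20) and Cd36 (0.62 ± 0.17). Cd36, a scavenger receptor for lipids, had no overlap, beside 2.64% of all genes there. It was at 0.953 ± 0.132 CPM in WT and 1.50 ± 0.294 in Cul3+/- mice, with an adjusted p of 0.293 (edgeR). The median of the list in adult CB was 0.20, beside 0.00 over all genes and 0.19 for microglia genes.

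Libraries of 1 group varied in the members together. Deviations of log2 CPM from the group mean were compared over the 102 libraries, which share mice and depth. Pearson's r between pairs of members ran from 0.25 to 0.79 with a median of 0.47 (Spearman's rho 0.18 to 0.68). It was 0.79 for Mrc1 and Cd163, 0.76 for Mrc1 and Pf4, 0.74 for Mrc1 and Lyve1 and 0.25 for Folr2 and Ms4a7, the genes with the fewest reads. The median over pairs was 0.53 at E17.5, 0.59 at P7 and 0.11 in adults. Without 2 mice with members far from their group, the E17.5 mouse of that CB library and the P7 Cul3+/- mouse whose CB held 27.5 CPM of Mrc1, pairs ran from 0.19 to 0.76.

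Over all 102 libraries the members deviated with the genes of the meningeal mesenchyme more than with those of microglia. With the summed meningeal genes r was 0.88 for Mrc1, 0.80 for Lyve1, 0.75 for Cd163, 0.73 for Pf4, 0.49 for Folr2 and 0.37 for Ms4a7. With the summed microglia genes it ran from -0.12 to 0.20. Without the 2 mice the values with meningeal genes ran from 0.31 to 0.84. In adults Mrc1 had 0.43 with the meningeal genes, against 0.91 at E17.5. Adult Lyve1 had 0.45 with them, Folr2 0.21, Pf4 0.18, Cd163 0.17 and Ms4a7 0.01, and adult values with the microglia genes ran from -0.26 to 0.19. With the choroid plexus genes adult Cd163 had 0.57, Mrc1 0.36, Ms4a7 0.34, Lyve1 0.31, Pf4 0.07 and Folr2 0.02. Between the regions of a mouse the deviations of a member had r from -0.37 to 0.44 in 18 values over 34 mice.

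**Figure D4:**
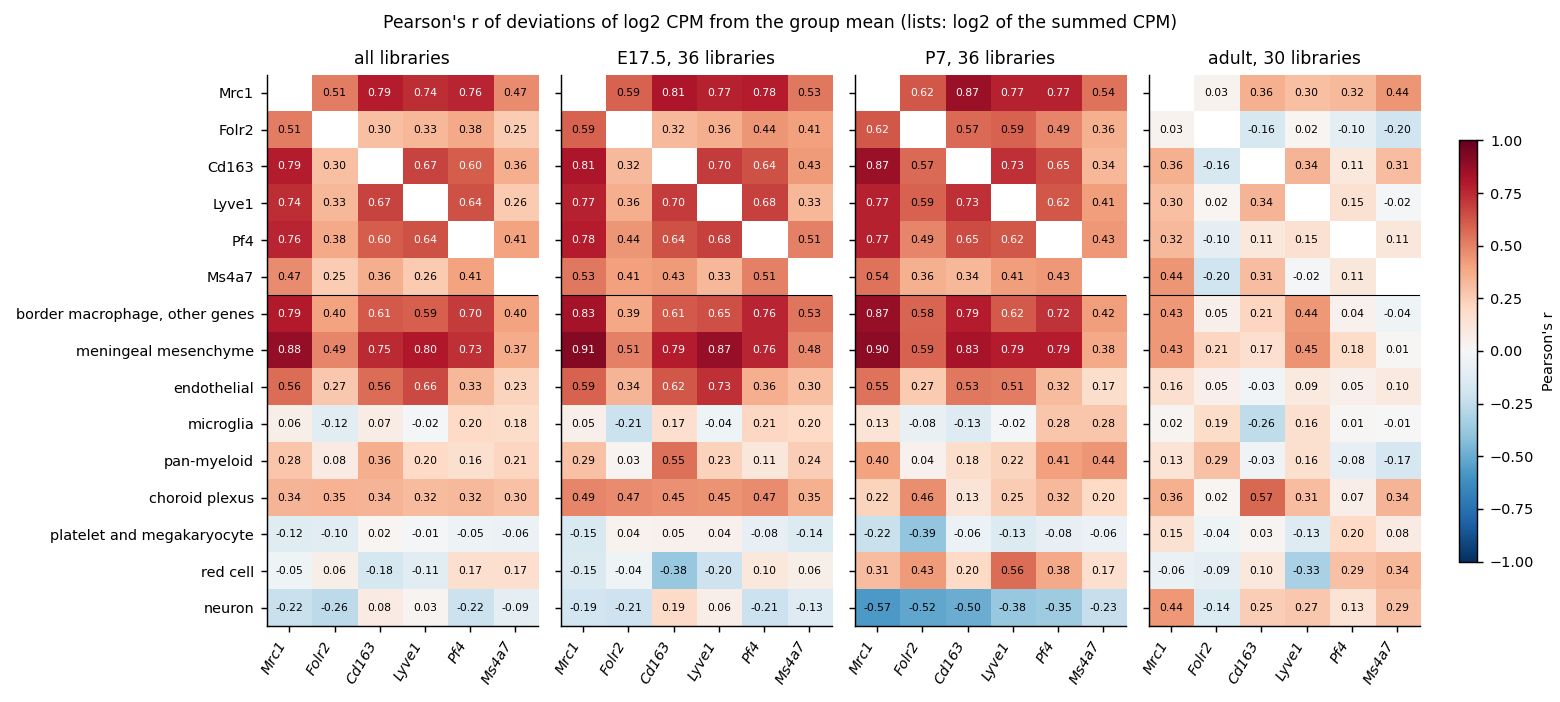
Pearson's r (colour and number) of each member with the other members and with summed genes of other cells, on deviations from the group mean, for all libraries and by age. Mrc1 had r of 0.88 with the meningeal genes over all libraries and 0.43 in adults.

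**Figure D5:**
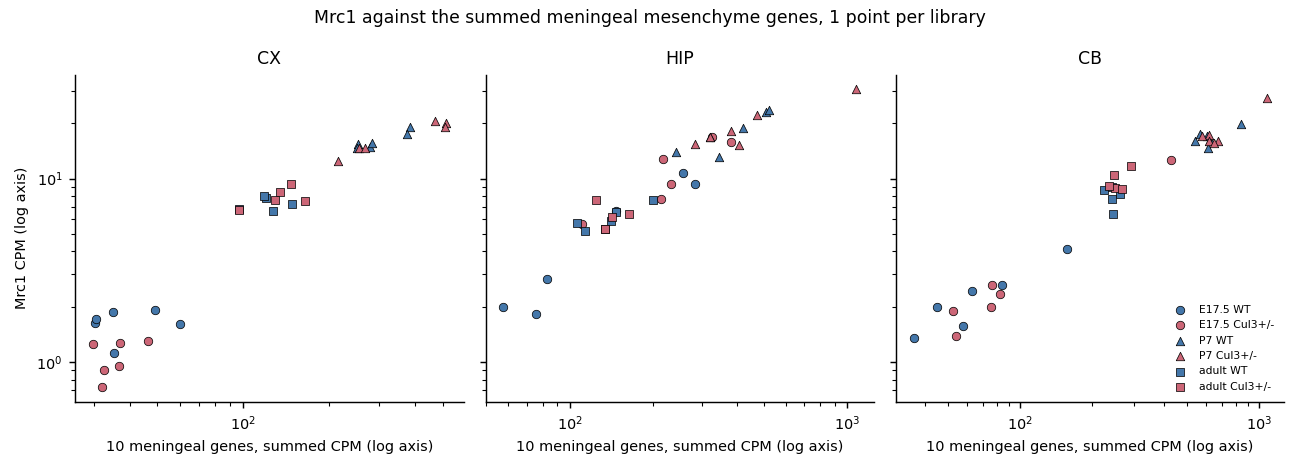
Mrc1 CPM against the summed CPM of 10 meningeal mesenchyme genes in each library (both axes log), 1 panel per region. In HIP the E17.5 libraries span 1.84 to 16.9 CPM of Mrc1, and in CB 1 Cul3+/- library of E17.5 lies at 428 CPM of meningeal genes.

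Genes most like the members were sought among 20859 genes. Within groups, by the mean r with the 6 members over 102 libraries, they included F13a1 (0.69), Col3a1 (0.66), Col1a2 (0.65), Slc6a13 (0.64), Tbx18 (0.64), Colec12 (0.64), Col6a2 (0.64), Cped1 (0.63) and Aldh1a2 (0.62). F13a1 is in the list of other border macrophage genes and Col3a1, Col1a2 and Slc6a13 in the meningeal list. By the profile over the 18 group means they were Col1a1 (0.98), Syt15, Foxc1, Lamc3, Foxf1, Tbx18, Frk, Fam129a, Msr1 and Col1a2 (0.96). The members themselves had 0.91 (Folr2) to 0.99 (Mrc1) with their mean profile.

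Genes of the same families were followed over the same step. Mrc2, a collagen receptor of the same family as Mrc1, rose in CX from E17.5 to P7 by 0.33 ± 0.15 and fell in CB by 0.47 ± 0.08. Cd44, another hyaluronan receptor, rose by 3.69 ± 0.14 in CX and 2.26 ± 0.12 in HIP, and was at 0.04 ± 0.08 in CB. Folr1, the folate receptor of the choroid plexus, was at 0.437 CPM in P7 CX and 6.43 in P7 CB. Of the relatives tested, 6 of 6 rose in CX, 4 of 7 rose and 1 fell in HIP, and 4 of 6 rose and 1 fell in CB.

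The other gene lists are given for their counts and medians. Cd163 is itself in the haem and iron list, Lyve1 in the hyaluronan list and Folr2 in the folate list, so these counts include members. Beside the counts higher at P7 stand 44.5%, 42.4% and 40.5% of all genes tested in CX, HIP and CB. Nothing is read from the counts. Of 13 pan-myeloid genes 12, 12 and 11 rose from E17.5 to P7 in CX, HIP and CB, and from P7 to adult 11, 11 and 0 rose and 1, 1 and 12 fell. Haem and iron clearance, the pathway that Cd163 feeds, had 8, 7 and 7 of 9 tested genes higher at P7 (medians 0.73, 0.31 and 0.69). Hyaluronan turnover had 4, 5 and 3 of 9 higher at P7, and 6, 6 and 6 fell from P7 to adult, with medians of -1.33, -1.37 and -1.86. Folate uptake and use, the list that holds Folr2, had 3, 2 and 5 of 9 higher and 5, 5 and 2 lower at P7. Of the same list, 8 of 9 were higher in P7 CB than CX, beside 46.9% of all genes tested. Of 12 myeloid growth and identity factors 8, 10 and 8 rose to P7.

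Among lists of other cells, choroid plexus genes had medians of 3.25, 0.77 and 2.72 from E17.5 to P7, endothelial genes 0.68, 0.28 and 0.95, and red cell genes -1.44, -1.38 and -0.81. The choroid plexus sum was uneven between libraries of a group. In Cul3+/- P7 HIP it was 4599 CPM in replicate 1, where Mrc1 was 30.6 CPM, and 56.1 to 97.1 in the others. The meningeal sum of that replicate was 1078 CPM, against 283 to 472 in the others. In Cul3+/- P7 CB, replicate 6 had a choroid plexus sum of 2422 CPM and Mrc1 at 15.7 CPM, the lowest of its group. Replicate 1 of that group had a choroid plexus sum of 946 CPM and Mrc1 at 27.5 CPM, the highest. The part of either sum in the level of Mrc1 was not tested. Platelet genes entered the period test with 3 of 10, lymphatic endothelial genes with 4, 4 and 5 of 5, and blood leukocyte genes with 0, 0 and 1 of 10. The 5 oligodendrocyte genes all rose at both steps in each region. Of 5 astrocyte genes 5, 5 and 4 rose to P7, and of 5 neuron genes 4, 4 and 3. No gene of any list named here was called between genotypes by edgeR.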

How the data were processed

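RNA was sequenced as ribodepleted stranded total RNA from 3 brain regions of Cul3+/- and WT mice. The values are expected counts per gene, which the authors deposited after trimming with Cutadapt 1.14, alignment with STAR 2.5.3a and quantification with RSEM 1.3 on GRCm38, as the submitters' processing notes and the study's methods give them. The strand setting of the quantification is not given in the sources used here. Expected counts were rounded to whole numbers before the tests.

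Sample groups were taken from the labels. Replicates were compared, and in 270 pairs the chi-square per degree of freedom was at least 4.71. CPM used TMM scaling, and the low members rest on few reads. Genes were filtered with filterByExpr (minimum count 10, minimum total 15) within each comparison and tested with edgeR 4.0.16 (quasi-likelihood, R 4.3.3), with Benjamini-Hochberg adjustment over all genes tested and a threshold of 0.1. Age was fitted within a region with genotype as a term, region within an age with the mouse as a block, and genotype within each age and region. Whether libraries overlap was read from CPM scaled within the comparison. The script of the tests was tested on simulated data.

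The members, the gene lists and the tests were chosen with earlier results of these data known. Named genes are the 6 members, Cul3, up to 4 genes of highest mean CPM of a list, relatives of the members, and the 10 genes most like the members within groups and the 10 most like them between groups. A gene named outside this rule is said to be. A gene that the rule selects by likeness within groups is not reported here.

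Alternatives were DESeq2 1.42.0, upper-quartile scaling, no filter on low counts, RUVs with 3 factors, 1 genotype alone, the 2 adult mice put back, each replicate left out, and the replicate number as a block. Chosen after seeing the data were fits without the 2 mice that stood apart. Libraries with the same replicate number deviated together in E17.5 CX, where r was 0.11 to 0.76 over 6 pairs, against a median of -0.09 for other pairs. In the other 8 combinations at least 1 pair was at or below 0.1. Their median r was 0.34 in E17.5 HIP, 0.29 in E17.5 CB and 0.17 in P7 CX, each with 5 of 6 pairs over 0.1. It was -0.06 in P7 HIP and 0.11 to 0.19 in P7 CB and the adult regions, against -0.06 to 0.00 for other pairs. In each region at E17.5 and P7, WT and Cul3+/- mice of 1 replicate number share a prefix in their names, such as S2. What the prefix or the number marks is not in the labels.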

Additional observations from a re-analysis of the deposited data

Results flagged for a closer look

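In 12 of 108 groups of a member's values (11.1%) the highest or lowest library lay far from the rest by Dixon's test, which chance gives in about 1 in 20 groups. No explanation was tested for any of them.

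Replicate 5 of Cul3+/- E17.5 CB was the highest of its group in 4 members. Its Mrc1 was 12.6 CPM, against 1.39 to 2.64 in the others of the group. Its Cd163 was 1.61 CPM, against 0.119 to 0.511 in the others of the group. Lyve1 was 2.30 CPM, against 0.121 to 0.474 in the others of the group, and Pf4 was 1.67 CPM, against 0.180 to 0.320 in the others of the group. The meningeal genes of the same library summed to 428 CPM.

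In P7 CB, Mrc1 of Cul3+/- replicate 1 was 27.5 CPM, against 15.7 to 17.3 in the others of the group. Replicate 2 of WT P7 CB held 6.24 CPM, against 3.05 to 3.83 in the others of the group for Lyve1. Its Pf4 was 2.46 CPM, against 1.79 to 1.93 in the others of the group.

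The remaining values rest on few reads or lie low. Mrc1 of WT E17.5 CX replicate 2 was 1.12 CPM, against 1.61 to 1.91 in the others of the group. Folr2 of adult Cul3+/- CB replicate 6 was 0.448 CPM, against 0.172 to 0.246 in the others of the group. Pf4 of adult WT HIP replicate 2 was 0.904 CPM, against 0.467 to 0.540 in the others of the group. Pf4 of adult Cul3+/- HIP replicate 6 was 0.385 CPM, against 0.521 to 0.550 in the others of the group. Ms4a7 of Cul3+/- E17.5 CX replicate 4 was 0.140 CPM, against 0 to 0.0325 in the others of the group, from 4 reads.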

How the results depend on the processing

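Counts are of the other border macrophage genes called. No called result changed direction under the alternatives run. RUVs with 3 factors gave 1 gene between genotypes in P7 CB, against 0. From P7 to adult in HIP, WT libraries alone gave 8, against 13. From CX to HIP at E17.5, no filter on low counts gave 17 against 9, and from CX to CB 11 against 6, with 27 genes tested in each. WT libraries alone gave 3 from CX to CB at E17.5, from fewer samples. Leaving out 1 replicate or mouse gave 0 to 0 in each genotype comparison. In comparisons of age and region each adult mouse was left out in turn, and at E17.5 and P7, with 6 mice a group, only the mouse that stood apart. This gave 19 to 19, 16 to 16 and 20 to 20 from E17.5 to P7 in CX, HIP and CB, and 13 to 14, 12 to 13 and 15 to 17 from P7 to adult. To HIP and CB from CX it gave 9 to 9 and 5 to 5 at E17.5, 12 to 12 and 14 to 14 at P7, and 11 to 12 and 14 to 14 in adults. All 6 members had their highest mean at P7 in each run without 1 library or mouse.

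For the members, Mrc1 from E17.5 to P7 in CX was 3.26 in WT and 3.96 in Cul3+/- libraries. DESeq2 gave no p for Mrc1 and Lyve1 in the CB comparisons of age, so these are in no count of lost calls. Over all genes and the 9 genotype comparisons, edgeR called 9 times, DESeq2 241 and RUVs 573. With the 2 adult mice put back, the labels' genotypes gave 5 calls in 3 comparisons and the table's 0.

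With the replicate number as a block, 55 of 16594 genes were called between genotypes in E17.5 CX, against 1, and 63 over all 9 comparisons. In adult CB the block called 0 genes, against 1, so the call of Cul3 was lost there, and in adult CX it called 2, against 1. Of the other border macrophage genes the block called 0 in each of the 9, 12 from P7 to adult in HIP, against 13, and equal numbers in the other 5 comparisons of age. Between regions, leaving out the mouse as a block gave 13 in adult CB, against 14, and equal numbers in the other 5. Folr2 and Ms4a7 had the fewest reads, with a median of 8 each, and how depth bears on the SE of a member was not tested.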

Other observations

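Member levels of the adult mice left out are given by region. The mouse labelled WT, which the study's table gives as Cul3+/-, had Cul3 at 195, 200.5 and 221 CPM in CX, HIP and CB. Its Mrc1 was 7.38, 5.26 and 8.47 CPM, Cd163 1.56, 2.16 and 2.43, Lyve1 0.674, 0.548 and 0.844, Pf4 0.497, 0.438 and 0.809, Folr2 0.248, 0.246 and 0.0703 and Ms4a7 0.355, 0.301 and 0.281. The mouse labelled Cul3+/-, which the table gives as WT, had Cul3 at 95.5, 98.3 and 117 CPM. Its Mrc1 was 10.0, 6.68 and 9.97 CPM, Cd163 1.89, 1.68 and 2.40, Lyve1 0.997, 0.778 and 0.718, Pf4 0.731, 0.389 and 0.911, Folr2 0.233, 0.150 and 0.304 and Ms4a7 0.598, 0.359 and 0.221.

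Meningeal mesenchyme genes lay above 0 in 10, 9 and 10 of 10 genes between Cul3+/- and WT mice at P7 in CX, HIP and CB, and none was called (edgeR). Their medians were 0.27, 0.32 and 0.18, beside 0.00, 0.01 and 0.00 over all genes tested. Pan-myeloid genes lay above 0 in 0 of 13 in P7 CX, with a median of -0.16, beside 0.00 over all genes tested, and none was called. Both lists were picked from many lists and genotype comparisons. Genes of a list can vary together between libraries, and nothing is read from these counts.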
